A study of Mus musculus with 8 samples.

Results

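The genes described here are 8 that mark mast cells: the granule proteases Cpa3, Cma1, Mcpt4, Tpsb2 and Tpsab1, the IgE receptor chains Fcer1a and Ms4a2, and the histamine-making enzyme gene Hdc. They were chosen by gene symbol out of the 24612 genes of the deposited table, and all 8 were found. Expression was measured by bulk RNA sequencing of skin homogenates from male C57BL/6J mice whose treatment began at 6 weeks of age and lasted 21 days, in 8 libraries. The PBS group (2 libraries) received 0.1 mL of phosphate-buffered saline under the skin. The bleomycin group (3 libraries) received 0.1 units of bleomycin by the same route, a DNA-damaging drug used in mice to model the skin fibrosis of systemic sclerosis. The celastrol group (3 libraries) received daily intraperitoneal celastrol, a triterpenoid from the plant Tripterygium wilfordii that was being studied against fibrosis. Its dose was 1 or 2 mg/kg, and the labels do not give the dose of each mouse, nor whether these mice were also given bleomycin. The celastrol comparisons are therefore comparisons of libraries by label. The labels do not say in words that each library came from a separate animal, so the p-values measure the spread between these libraries.

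Mast cells are long-lived tissue cells of the hematopoietic lineage that settle around vessels, nerves and hair follicles in the dermis. Their granules store histamine and proteases bound to heparin. When antigen crosslinks IgE held by the high-affinity receptor, or when a basic secretagogue engages the receptor Mrgprb2, the granules are released. Mouse skin holds mainly the connective-tissue type, which makes Cpa3 (carboxypeptidase A3), the chymase-locus proteases Cma1 (mMCP-5) and Mcpt4 (mMCP-4), and the tryptase Tpsb2 (mMCP-6). In bulk tissue, fewer mast cells and less RNA per mast cell cannot be told apart.

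All 8 genes gave values above 0 in all 8 libraries. Other connective-tissue mast cell genes were present too: Kit lay between 391.7 and 826 on the normalized scale, Mrgprb1 between 484 and 758, and Mrgprb2 between 59.1 and 354. Mcpt2, a protease of mucosal mast cells, was at 0 in 7 of the 8 libraries and at 27.9 in Celastrol 2. Mcpt8, which marks basophils, the other cell type with the complete receptor, was at 0 in both PBS libraries, in Bleomycin 2 and in Celastrol 2, and reached 22.1 in Celastrol 5. Of the other genes listed as basophil markers, Gata1 was at 0 in 3 libraries and reached 121.5 in Celastrol 2. Cd200r3 lay between 476 and 1118 and Itga2 between 988 and 1764. Which skin cells these values come from was not tested, so they are not read as a level of basophils. Prss34 was looked for and not found under this symbol in the deposited table.

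Estimated depth ran from 14900000 reads (Celastrol 3) to 37100000 reads (Celastrol 5). Celastrol 2 stood apart from the other libraries on the first principal component, with a score of 237 against -57.3 to -3.63. Markers of fibroblasts and skeletal muscle moved with the groups. The 8 fibroblast markers summed to 1.48% and 3.26% of all values in PBS, 0.132% to 0.461% in bleomycin and 0.113% to 0.302% in celastrol, and the 8 skeletal muscle markers to 2.23% and 2.28%, 3.16% to 4.51% and 4.81% to 7.03%. Of the fibroblast markers, Col1a2, Col3a1, Dpt, Lum, Dcn and Cd34 fell in bleomycin against PBS, and these and Col1a1 fell in celastrol against PBS. Collagen messages were thus lower, not higher, in the libraries labelled bleomycin. Col1a1 was at 48040 and 200800 in PBS and at 1238 to 18990 in bleomycin, but did not itself pass in bleomycin against PBS. The muscle marker Myh1 rose in bleomycin, and Myh1, Myh4, Ttn and Tnnt3 rose in celastrol, each against PBS. Of the other cell types listed, only the neutrophil markers, given below with Hdc, had genes that passed. The part of these cell types in the mast cell values was not tested.

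The promoter windows of 4 of the genes are shown because each holds the GATA motif, the letters read by GATA-family factors such as GATA2, which mast cells need. The windows run from 250 bases before to 50 bases after the annotated start and come from RefSeq (GRCm38.p6). Windows were given for 6 of the 8 genes, and there is none here for Tpsb2 and Tpsab1. Capitals mark AGATAA or TGATAA, or their complements TTATCT and TTATCA, and, in Fcer1a, the E-box CATGTG read as CACATG. All 4 genes are on the minus strand, and each sequence is written in the direction of transcription.
Cpa3, chr3:20242132-20242431, minus strand: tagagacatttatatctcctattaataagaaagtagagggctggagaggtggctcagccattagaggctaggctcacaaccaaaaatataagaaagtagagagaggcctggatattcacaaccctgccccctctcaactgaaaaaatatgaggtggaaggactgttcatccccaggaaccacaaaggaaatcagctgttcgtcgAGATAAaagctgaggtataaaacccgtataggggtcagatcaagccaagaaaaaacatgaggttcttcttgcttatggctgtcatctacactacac
Mcpt4, chr14:56062261-56062560, minus strand: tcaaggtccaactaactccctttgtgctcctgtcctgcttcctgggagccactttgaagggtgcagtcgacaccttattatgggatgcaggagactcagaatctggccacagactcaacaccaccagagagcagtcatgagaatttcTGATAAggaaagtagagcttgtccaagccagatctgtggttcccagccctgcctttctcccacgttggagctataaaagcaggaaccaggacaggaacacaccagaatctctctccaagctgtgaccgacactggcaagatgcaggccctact
Fcer1a, chr1:173227180-173227479, minus strand: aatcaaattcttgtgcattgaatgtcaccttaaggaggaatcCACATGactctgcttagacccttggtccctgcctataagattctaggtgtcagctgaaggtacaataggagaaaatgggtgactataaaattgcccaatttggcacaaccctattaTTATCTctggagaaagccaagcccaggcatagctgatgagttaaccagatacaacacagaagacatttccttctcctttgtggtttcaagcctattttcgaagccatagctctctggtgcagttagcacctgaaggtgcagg
Ms4a2, chr19:11623670-11623969, minus strand: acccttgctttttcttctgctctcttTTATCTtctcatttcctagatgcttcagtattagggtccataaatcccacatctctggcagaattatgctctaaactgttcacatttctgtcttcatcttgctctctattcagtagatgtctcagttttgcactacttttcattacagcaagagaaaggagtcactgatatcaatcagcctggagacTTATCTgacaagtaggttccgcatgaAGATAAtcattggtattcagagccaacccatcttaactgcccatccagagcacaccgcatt

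The GATA motif was searched on both strands and was found in 4 of the 6 windows, against 18.6% of the 32851 promoter windows of the same length. Ms4a2 held 3 copies, which begin 224, 37 and 11 bases before the start, and Cpa3, Mcpt4 and Fcer1a held 1 each, at 46, 103 and 92 bases before it. The Cma1 and Hdc windows did not hold these letters. The E-box CATGTG was found in 1 of the 6 windows (14.2% of all windows) and the E-box CACGTG in 0 of 6 (7.15% of all windows). A match is a description of letters and not of a bound site.

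Levels between genes can be set side by side only per length, so the deposited values were divided by the exonic length of each gene in kilobases. This length joins the exons of all annotated transcripts, so it can exceed that of the expressed message and understate the level. It was 6389 bases for Hdc, 2813 for Ms4a2 and 2094 for Tpsab1, against 1517 for Cpa3, 1108 for Mcpt4 and 1090 for Cma1. Over all libraries the mean level per kilobase was 1575 for Cpa3, 1167 for Mcpt4 and 803 for Cma1. It was 208 for Tpsb2, 184 for Ms4a2, 58.9 for Fcer1a, 25.9 for Hdc and 9.31 for Tpsab1. Cpa3, Mcpt4 and Cma1, with ranges per kilobase of 1191 to 2063, 804 to 1552 and 564 to 1150, lay above every value of the other 5 genes, the highest of which was 320 for Tpsb2. Neighbours within that upper group overlapped in range, as did Tpsb2 with Ms4a2 (90.4 to 245), Ms4a2 with Fcer1a (14.6 to 153.0), Fcer1a with Hdc (2.25 to 54.3) and Hdc with Tpsab1 (1.66 to 25.9). By this measure of length, Cpa3, Mcpt4 and Cma1 thus stood above both receptor chains and Hdc. The range of Tpsb2 overlapped with that of Fcer1a and lay above that of Tpsab1.

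Cpa3, the carboxypeptidase that trims peptides after the chymases have cut them, is on chromosome 3 (20215620 to 20242181, minus strand, 11 exons in mm10). Its normalized value was 2139 and 1807 in PBS, 1893, 2706 and 2430 in bleomycin, and 2428, 3129 and 2576 in celastrol. The celastrol libraries all lay above both PBS libraries, while bleomycin overlapped with each of the other groups. The mean was 1973 ± 235 in PBS (SD, n = 2), 2343 ± 413 in bleomycin (n = 3) and 2711 ± 370 in celastrol (n = 3). Of the 8 genes it varied least, with 1.73-fold between the lowest and the highest library.

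Cma1 encodes mMCP-5, which in the mouse cuts like an elastase although it is the sequence counterpart of human chymase. It lies on chromosome 14 (55941451 to 55944675) near Mcpt4, and its value was 751 and 654 in PBS, 615, 1005 and 739 in bleomycin, and 1254, 857 and 1123 in celastrol. Bleomycin 2 was the lowest library and the celastrol libraries lay above both PBS libraries. Mcpt4, on the same chromosome (56059629 to 56062313), encodes mMCP-4, the main chymotrypsin-like activity of mouse skin mast cells. Its value was 1156 and 890 in PBS, 1164, 1345 and 1174 in bleomycin, and 1720, 1307 and 1590 in celastrol. Both treated groups lay above both PBS libraries, though Bleomycin 2 lay close to PBS 2, and the treated groups overlapped with each other. The coding sequences of Cma1 and Mcpt4 were identical at 66.7% of aligned bases, with a longest shared run of 27 bases.

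Tpsb2, on chromosome 17 (25366305 to 25369098, plus strand), encodes mMCP-6, a tetrameric tryptase held together by heparin. Its value was 338 and 149 in PBS, 409, 345 and 354 in bleomycin, and 341, 211 and 509.5 in celastrol. Bleomycin lay above PBS by a narrow margin over PBS 2, and celastrol spanned most of the whole range. Tpsab1, beside it on chromosome 17 (25343245 to 25345562), encodes mMCP-7, a tryptase whose protein is missing in C57BL/6 mice because of a splice-site change. The Tpsab1 value was 3.48 and 8.83 in PBS, 13.1, 22.2 and 25.0 in bleomycin, and 54.2, 13.5 and 15.7 in celastrol. All treated libraries lay above both PBS libraries, with Celastrol 2 highest, but the values stand for only 5 to 34 reads a library. Celastrol 3 and PBS 3 stood for 8 reads each and differ only by the library scaling. Within a library, Tpsab1 was 1.03% to 15.9% of Tpsb2. The coding sequences were identical at 74.9% of aligned bases with a longest shared run of 39 bases, so reads placed on either gene may in part be uncertain.

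Fcer1a, on chromosome 1 (173221284 to 173227214), encodes the alpha chain of the high-affinity IgE receptor, the part that holds IgE. Its value was 14.6 and 32.0 in PBS, 37.9, 57.5 and 55.9 in bleomycin, and 152.6, 50.6 and 69.0 in celastrol. All treated libraries lay above both PBS libraries, and Celastrol 2 lay far above the rest. The depth behind these values was 21 to 97 reads a library. Ms4a2, on chromosome 19 (11615523 to 11623719), encodes the beta chain, which amplifies the signal. Its value was 254 and 535 in PBS, 369, 576 and 689 in bleomycin, and 647, 677 and 388 in celastrol. All 3 groups overlapped, since PBS 3 lay above Bleomycin 2 and Celastrol 5.

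Hdc, on chromosome 2 (126593667 to 126619299), encodes histidine decarboxylase, which makes histamine from histidine. Its value was 70.9 and 14.4 in PBS, 132, 239 and 249.4 in bleomycin, and 347, 98.1 and 173 in celastrol. All treated libraries lay above both PBS libraries, and PBS 3 lay well below PBS 2. The PBS 3 value stood for only about 13 reads. The mean was 42.7 ± 40.0 in PBS (SD, n = 2), 207 ± 64.7 in bleomycin (n = 3) and 206 ± 128 in celastrol (n = 3). Of the 8 genes it varied most, with 24.1-fold between PBS 3 and Celastrol 2. Myeloid cells other than mast cells can also express Hdc, and the summed neutrophil markers, at 928 and 1315 in PBS, lay between 1386 and 6048 in bleomycin and between 2000 and 2986 in celastrol. Of those 5 markers S100a8 rose in both treated groups against PBS and S100a9 rose in celastrol. S100a8 was at 0.696 and 0 in PBS, and at 38.6 to 1610 in the treated libraries. The part of such cells in the Hdc values was not tested.

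**Figure D1:**
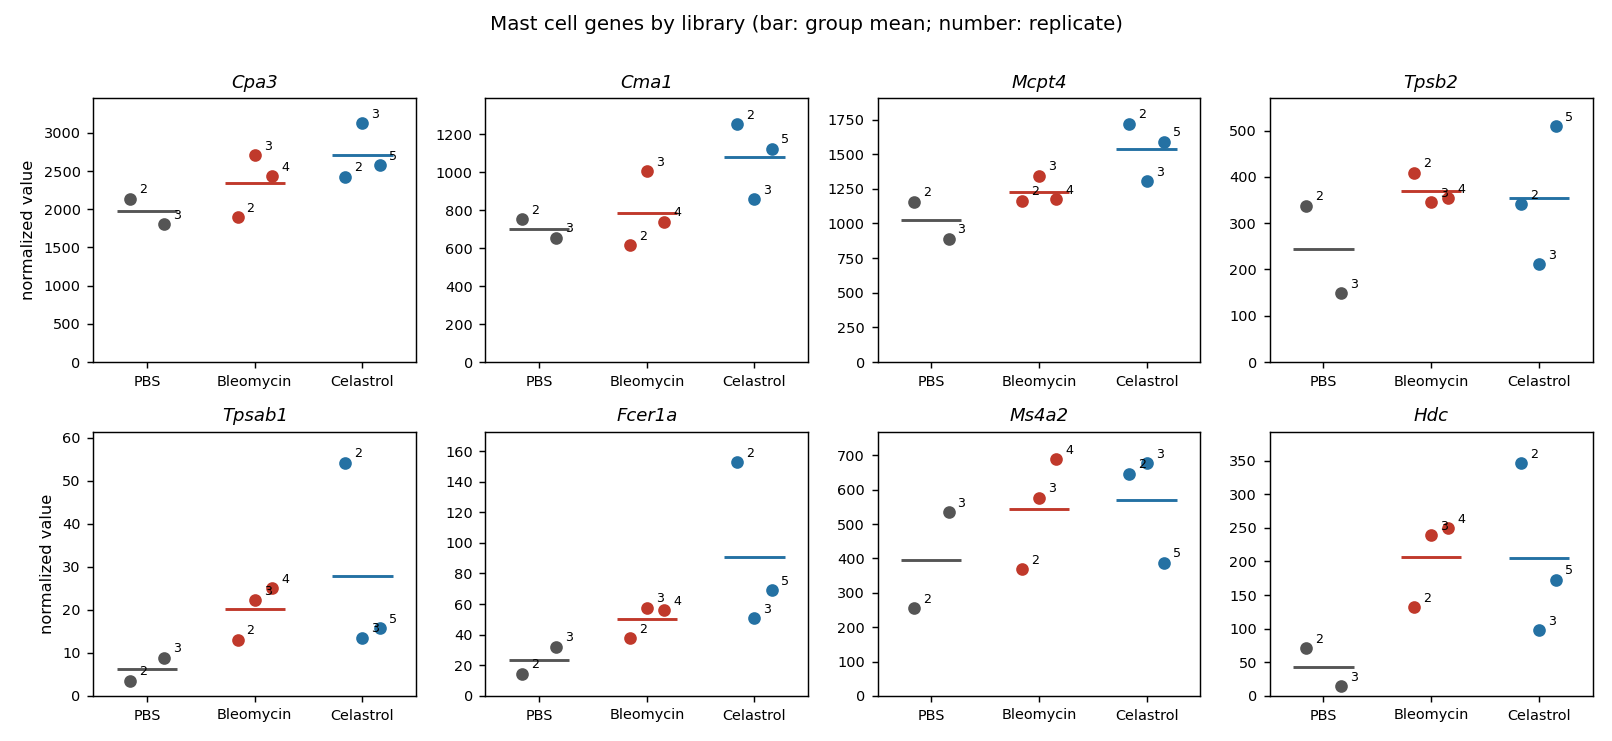
Normalized value (linear axis from 0) of the 8 mast cell genes in each library, by group; points are libraries, numbers are replicates and bars are group means. For Mcpt4, Tpsab1, Fcer1a and Hdc every treated library lies above both PBS libraries, while the Ms4a2 groups overlap.

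The comparison of bleomycin with PBS asked whether injected bleomycin changed these genes. All 8 estimates were above 0, with a median log2 fold change of 0.61, and none of the 8 passed the test, by limma with Benjamini-Hochberg adjustment over the 23185 genes tested. Over all genes tested, 0.677% passed in either direction, the median log2 fold change was -0.00, and 49.9% of estimates were above 0. The largest difference was that of Hdc, at 2.59 ± 0.73 (log2, SE), which is 6.02-fold with a 95% confidence interval of 1.96 to 18.5. Its unadjusted p was 0.00494 and its limma adjusted p was 0.219, and it was the only gene of the 8 with an unadjusted p under 0.05, against 6.82% of all genes. Without PBS 3 the Hdc estimate was 1.48 and without PBS 2 it was 3.70. With libraries weighted by their quality the limma adjusted p for Hdc was 0.0218, and over the other settings tried it lay between 0.1 and 1.

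The proteases gave smaller estimates in bleomycin against PBS. Cpa3 differed by 0.24 ± 0.21 (log2, SE), Cma1 by 0.14 ± 0.26 and Mcpt4 by 0.27 ± 0.21. Their 95% intervals, of -0.22 to 0.69, -0.45 to 0.72 and -0.19 to 0.73, leave out a doubling of any of the 3. Tpsb2 differed by 0.71 ± 0.44, with 0.12 without PBS 3 and 1.3 without PBS 2, and Tpsab1 by 1.62 ± 1.06. The receptor chains differed by 1.16 ± 0.75 for Fcer1a and 0.51 ± 0.40 for Ms4a2. The limma adjusted p was 1 for each of these 7 genes.

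The libraries of bleomycin lay wholly above those of PBS for 5 of the 8 genes, namely Mcpt4, Tpsb2, Tpsab1, Fcer1a and Hdc, and wholly below for 0. Over all genes tested, 12.0% lay wholly above and 11.6% wholly below. For 2 of the 5 the margin over PBS 2 was narrow. Mcpt4 was at 1164 in Bleomycin 2 against 1156, and Tpsb2 at 345 in Bleomycin 3 against 338. The count of 5 also held after quantile normalization and after scaling by the upper quartile. Leaving out a library cannot lower this count, so that is no check of it. With a single library left out it lay between 5 and 7. The share over all genes tested then lay between 12.0% and 27.3%, with 7 of 8 against 21.6% without Bleomycin 2.

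The comparison of celastrol with PBS used the same PBS libraries, so the values of both comparisons are given side by side and not as independent results. All 8 estimates were again above 0, with a median log2 fold change of 0.60 against -0.07 over all genes tested, of which 45.6% were above 0. None of the 8 passed by limma, where 1.37% of all genes passed in either direction, and 5 of the 8 had an unadjusted p under 0.05, against 12.0% of all genes. Hdc differed by 2.45 ± 0.73 (log2, SE; limma adjusted p = 0.18), which is 5.46-fold with a 95% interval of 1.78 to 16.8, and 1.34 without PBS 3. Mcpt4 differed by 0.59 ± 0.21 (limma adjusted p = 0.263), or 1.51-fold with an interval of 1.10 to 2.07. Cma1 differed by 0.60 ± 0.26 and Cpa3 by 0.45 ± 0.21.

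In that comparison Fcer1a differed by 1.86 ± 0.75 (log2, SE; limma adjusted p = 0.347), with estimates of 1.32 to 2.40 when a single library was left out. Ms4a2 differed by 0.58 ± 0.40, Tpsb2 by 0.56 ± 0.44 and Tpsab1 by 1.84 ± 1.06. Celastrol lay wholly above PBS for 6 of the 8 genes, namely Cpa3, Cma1, Mcpt4, Tpsab1, Fcer1a and Hdc, and wholly below for 0. Over all genes tested, 13.2% lay wholly above and 13.7% wholly below. For Tpsab1, Celastrol 3 at 13.5 and PBS 3 at 8.83 each stood for 8 reads, so their order rests on the library scaling.

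Setting celastrol against bleomycin asked whether the treated groups differed. None of the 8 genes passed by limma, and neither did any gene of the table (0%), where 898 genes (3.87%), and 0 of the 8, had an unadjusted p under 0.05 and a fit without the mean-variance trend called 2. Of the 8 genes, 6 had an estimate above 0 and the median log2 fold change was 0.22, against -0.04 over all genes tested, of which 46.3% were above 0. Cma1 came nearest, at 0.47 ± 0.24 with a 95% interval of -0.05 to 0.99. The intervals of Cpa3 (-0.19 to 0.62), Cma1 and Mcpt4 (-0.09 to 0.73) leave out a doubling and a halving. Those of Hdc (-1.59 to 1.31) and Tpsab1 (-1.88 to 2.31) include both, and that of Fcer1a (-0.78 to 2.18) leaves out a halving and includes a doubling. For 0 of the 8 genes did celastrol lie wholly above bleomycin, against 4.13% of all genes tested, and for 0 of 8 wholly below, against 4.59%. Without Celastrol 3 the count above was 3, against 9.9% of all genes, and without Bleomycin 3 it was 2, against 8.4%.

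**Figure D2:**
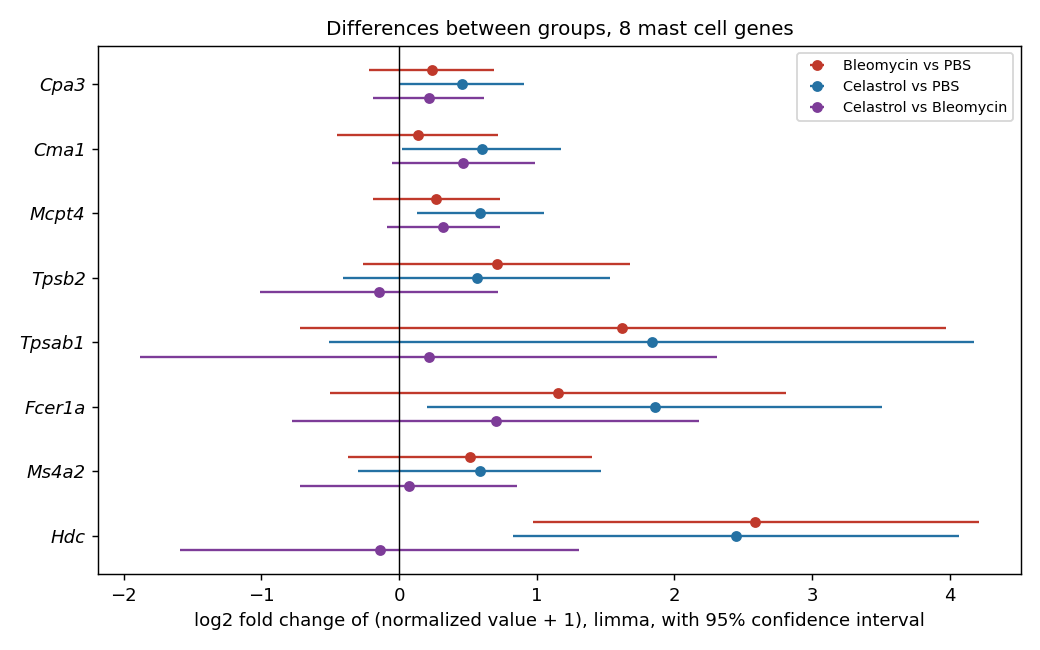
Log2 fold change of each gene in the 3 comparisons (horizontal axis; limma on the normalized value + 1), with bars for the 95% confidence interval. Against PBS all points lie above 0, with the widest bars for Tpsab1, Fcer1a and Hdc, and celastrol against bleomycin lies around 0.

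The ratio of a gene to Cpa3 within a library does not depend on how the library was scaled. Mcpt4 was 41.8% to 70.9% of Cpa3 and Cma1 27.4% to 51.7%, and for both the lowest ratio was in Celastrol 3 and the highest in Celastrol 2. Kit, which encodes the receptor for stem cell factor, was 19.8% to 32.5% of Cpa3, and Mrgprb1 18.4% to 30.2%, ranges of 1.64-fold each. The highest ratio was 1.89 times the lowest for Cma1 and 1.70 times for Mcpt4. The ratios of Ms4a2 and Tpsb2 ranged 2.49-fold and 3.21-fold, those of Fcer1a 9.21-fold, Tpsab1 13.7-fold and Hdc 18.0-fold. Hdc was 3.32% and 0.795% of Cpa3 in PBS, 6.99%, 8.82% and 10.3% in bleomycin, and 14.3%, 3.13% and 6.71% in celastrol. Relative to Cpa3, Hdc in bleomycin lay wholly above PBS, whereas Celastrol 3 lay below PBS 2.

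**Figure D3:**
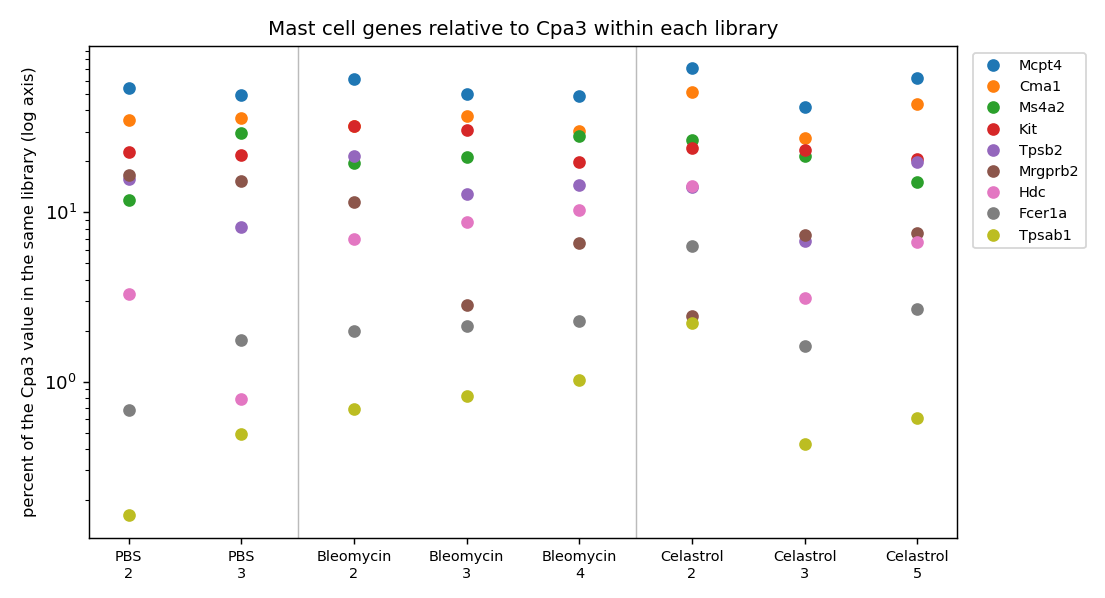
Value of each gene as a percent of Cpa3 in the same library (log axis), with libraries on the horizontal axis and lines between the groups. Mcpt4, Cma1 and Kit stay within narrow bands, Hdc is lowest in PBS 3 at 0.795% and highest in Celastrol 2 at 14.3%, and Mrgprb2 is highest in both PBS libraries.

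Across the 8 libraries the correlation with Cpa3 was highest for Cma1 (Pearson's r = 0.63, Spearman's rho = 0.60) and Mcpt4 (r = 0.62, rho = 0.64). Neither passed an exact permutation test, with p = 0.0957 and 0.096 for r, and 0.132 and 0.0962 for rho; after Benjamini-Hochberg adjustment over the 7 relations the p was 0.336 for both r and 0.34 for both rho. Without PBS 3 and Celastrol 3, the libraries farthest from the median of Cpa3, r was 0.76 for Cma1 and 0.56 for Mcpt4. The other 5 genes gave r of 0.16 to 0.55, with exact permutation adjusted p of 0.364 to 0.71. As deviations from the group means, the correlations with Cpa3 lay between -0.32 and 0.28. By library, the lowest value was in a PBS library for 7 of the 8 genes and in Bleomycin 2 for Cma1, and the highest was in Celastrol 2 for 5 of the 8.

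The genes whose pattern over the 8 libraries was most like the mean of the 8 were ranked by Pearson's r among 13380 genes with a mean value of at least 50. The log2 values were centred but not scaled to equal spread. The mean therefore follows mostly Hdc, Tpsab1 and Fcer1a, which ranged 24.1-fold, 15.6-fold and 10.4-fold, more than Cpa3 at 1.73-fold. No r was tested against what 13380 genes give by chance over 8 libraries. The first 10 were Rbl1, Actr2, Apol8, Tnfrsf13b, Fignl1, Hspa5, Cxcl1, Pcgf3, Arrdc4 and Slc10a6, with r of 0.959 to 0.984. None of these is a mast cell gene by the lists used here. Among the other mast cell genes, Tph1, which makes serotonin, had r = 0.87 and ranked 203, Srgn, the granule proteoglycan core, had 0.72, and Kit had 0.51. Mitf, Mrgprb2 and Gata2 ran the other way, at -0.91, -0.86 and -0.82.

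Of 16 further mast cell genes tested, none passed in any comparison, and their median log2 fold change was 0.13 in bleomycin against PBS, 0.10 in celastrol against PBS and 0.02 in celastrol against bleomycin. Against PBS, 9 of the 16 estimates were above 0 in bleomycin and 11 in celastrol (49.9% and 45.6% of all genes tested). Bleomycin lay wholly above PBS for 1 and below for 3, against 12.0% and 11.6% of all genes. Celastrol lay wholly above PBS for 7 and below for 3, against 13.2% and 13.7%. Mrgprb2, the receptor through which basic secretagogues and some drugs degranulate connective-tissue mast cells, was at 354 and 278 in PBS, 218, 77.1 and 160 in bleomycin, and 59.1, 231 and 194 in celastrol. All treated libraries lay below both PBS libraries, the opposite order to Hdc, at -1.17 ± 0.63 (log2, SE) in both comparisons with PBS and limma adjusted p of 0.918 and 0.513. Kit, at 487 and 391.7 in PBS, 615, 826 and 481 in bleomycin, and 581, 734 and 535 in celastrol, differed by 0.52 ± 0.29 in bleomycin and 0.48 ± 0.29 in celastrol, each against PBS. Kit in celastrol against bleomycin was -0.03 ± 0.26.

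Il1rl1, which encodes the receptor for interleukin-33, was at 500.5 and 439 in PBS, 572, 1143 and 675 in bleomycin, and 682, 1007 and 836 in celastrol. It lay wholly above PBS in both treated groups without passing (limma adjusted p = 0.704 and 0.301). Srgn was at 357 and 519.7 in PBS, 346, 1244 and 1431 in bleomycin, and 1027, 1264 and 1616 in celastrol, a difference of 1.57 ± 0.51 in celastrol against PBS (limma adjusted p = 0.226). Mitf, a transcription factor of mast cells and melanocytes, lay below PBS in all treated libraries, at -0.43 ± 0.22 in bleomycin and -0.64 ± 0.22 in celastrol, also without passing. In celastrol against bleomycin, Rab27b, a regulator of granule secretion, was at 0.39 ± 0.18, and Slc18a2, the transporter that loads histamine into granules, at 0.82 ± 0.58. Slc18a2 was at 102.9 and 90.5 in PBS, 57.2, 41.8 and 72.75 in bleomycin, and 100.1, 188.9 and 51.2 in celastrol. Against PBS it differed by -0.78 ± 0.65 in bleomycin, which lay wholly below, and by 0.04 ± 0.65 in celastrol. The prostaglandin D2 synthase gene Hpgds was near level throughout, at 2382 to 3369.

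Of 15 genes that carry the signal from the IgE receptor to the granule, 1 rose in bleomycin against PBS, where 0.677% of all genes passed, and 0 passed in the other comparisons. The median log2 fold change of the 15 was 0.33 in bleomycin and 0.09 in celastrol against PBS, and -0.24 between the treated groups. The gene was Lcp2, the adaptor SLP-76, which is shared by mast cells, T cells and other myeloid cells. Its value was 301 and 284 in PBS, 643, 967 and 844 in bleomycin, and 578, 634 and 786 in celastrol, with all treated libraries above both PBS libraries. The difference was 1.46 ± 0.26 (log2, SE; limma adjusted p = 0.0348) in bleomycin and 1.17 ± 0.26 (limma adjusted p = 0.0598) in celastrol. The call was lost without PBS 2, PBS 3, Bleomycin 3, Bleomycin 4 or Celastrol 5 (limma adjusted p of 0.148, 0.242, 0.13, 0.197 and 0.0586), and lay at 0.05 without Celastrol 3. It was also lost in a fit of only the 2 groups (0.0745), without the mean-variance trend (0.23) and without Bleomycin 3, Celastrol 2 and Celastrol 3 together (0.215). The estimate lay between 1.33 and 1.62 over all settings tried. Ptprc, a marker of all leukocytes, was at 5005 and 5639 in PBS and at 5825 to 9186 in bleomycin, and its part in the Lcp2 value was not tested.

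Other signalling genes did not pass. Lyn, the kinase that first phosphorylates the receptor, was at 850 and 970 in PBS, 1342, 1702 and 1943 in bleomycin, and 1117, 1451 and 1599 in celastrol, at 0.86 ± 0.23 and 0.60 ± 0.23 against PBS (limma adjusted p = 0.178 and 0.315). Fyn, the kinase of a parallel branch, lay wholly below PBS in both groups, at -1.08 ± 0.29 and -1.19 ± 0.29 (limma adjusted p = 0.185 and 0.0923). Inpp5d, the phosphatase SHIP-1 that restrains the signal, was at 0.96 ± 0.28 and 1.03 ± 0.28 (limma adjusted p = 0.248 and 0.138). In celastrol against bleomycin Syk was at -0.33 ± 0.18, Lat at -2.55 ± 1.23 and Gab2 at -0.32 ± 0.21. Lat values were low, at 48.2, 31.4 and 25.0 in bleomycin and 0, 5.06 and 32.7 in celastrol. Fcer1g, the gamma chain that the receptor shares with Fc receptors of other leukocytes, was at 192 and 123 in PBS, 263, 331 and 263 in bleomycin, and 138, 192 and 403 in celastrol. It differed by 0.88 ± 0.47 in bleomycin and 0.52 ± 0.47 in celastrol against PBS, and by -0.36 ± 0.42 between the treated groups.

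**Figure D4:**
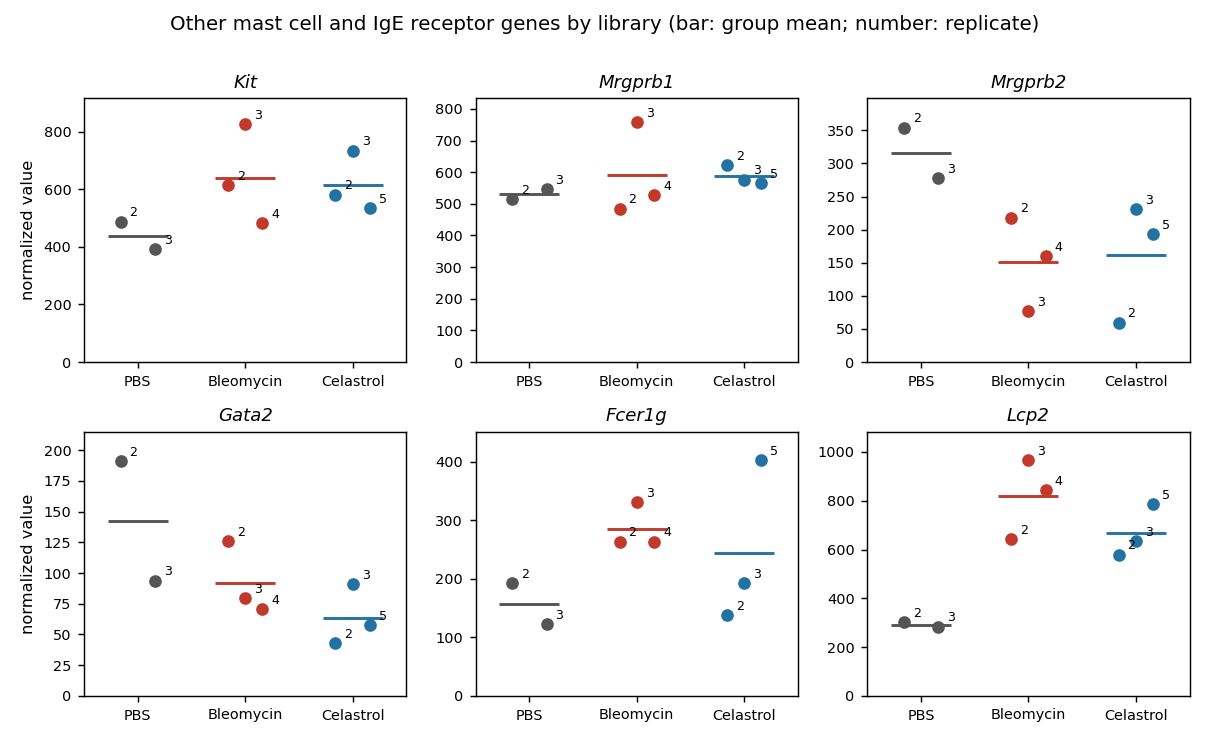
Normalized value (linear axis from 0) of 6 further genes in each library, by group; points are libraries, numbers are replicates and bars are group means. Lcp2 lies above PBS and Mrgprb2 below PBS in every treated library, while Mrgprb1 shows little difference between groups.

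Proteases encoded beside the chymases and tryptases gave low values, and 0 of the 5 tested passed. Gzmb, granzyme B of cytotoxic lymphocytes, was at 6.96 and 15.5 in PBS, 39.3, 45.8 and 86.0 in bleomycin, and 108.3, 48.9 and 51.2 in celastrol, at 2.26 ± 0.79 and 2.52 ± 0.79 against PBS (limma adjusted p = 0.449 and 0.203). Mcpt9 lay between 4.98 and 31.4 except in Celastrol 2 and Celastrol 3, where it was at 0. Gzmc was at 0 in the same libraries and reached 53.0 in PBS 3, and Tpsg1 reached 59.1 in Celastrol 3. Mcpt1, Cma2, Ctsg, Prss28 and Prss29 were looked for and not found under these symbols in the deposited table.

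Factors that grow or recruit mast cells did not pass either, with 0 of 5 tested in each comparison. Kitl, which encodes stem cell factor, was at 1398 and 1375 in PBS, 1693, 965 and 1983 in bleomycin, and 1909, 1856 and 1630 in celastrol, or 0.09 ± 0.27 and 0.37 ± 0.27 against PBS. Il33, an alarmin that acts on mast cells through Il1rl1, was at 1306 and 1588 in PBS, 983, 3166 and 1376 in bleomycin, and 2180, 1699 and 1652 in celastrol, or 0.17 ± 0.39 and 0.34 ± 0.39. Tslp, an epithelial cytokine, was at -0.77 ± 1.48 and -2.66 ± 1.48 against PBS. Tslp stood at 86.9 and 77.2 in PBS, 32.4, 61.4 and 54.4 in bleomycin, and 0, 43.9 and 49.8 in celastrol. The 0, in Celastrol 2, enlarges the second estimate. Il10 was at 0 in 4 libraries and reached 17.2 in Bleomycin 2. On the responding side, 0 of 4 tested genes passed. The histamine receptor genes Hrh1 and Hrh2 gave -0.58 ± 1.43 and 1.67 ± 0.84 in bleomycin against PBS, and F2rl1, the receptor that tryptase cleaves, gave -0.27 ± 0.25. Hnmt, which inactivates histamine, lay between 270.5 and 403 in all libraries.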

How the data were processed

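The values are the authors' deposited normalized signal on a linear scale: per the file headers and the table's title, values were scaled with DESeq2 size factors of the poscounts kind. The submitters' processing notes name STAR 2.7.3a, Partek 10.0.22 and the mm10 build without giving their roles. Aligner settings, the counter, the annotation and the use of strand are not given in the sources used here. The library kit was a VAHTS total RNA kit, per the labels' protocols. The value of a single read was read from the steps between low values and gave the estimated depths. Only 58.5% to 66.9% of values under 1000 reads came within 0.03 of a whole number of reads, so no count test was run. For the 8 genes 49 of 64 values were whole, with Hdc and Ms4a2 whole in 2 of 8 libraries each. Intervals on such counts are not given.

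Values plus a pseudocount of 1 were taken to log2 and fitted with limma 3.58.1 in R 4.3.3 (eBayes with a mean-variance trend), all 8 libraries in a single fit without covariates. A gene needed a value of 10 or more in 2 or more libraries, which left 23185 genes, removed 1427 and kept all 8 mast cell genes. The two-sided p-values were adjusted by the Benjamini-Hochberg method over the 23185 genes, with calls made under 0.05. The pseudocount pulls log2 fold changes of low genes toward 0, but a single library at 0 can enlarge them. For Tslp in celastrol against PBS the fitted fold was 0.159, against 0.380 for the ratio of group means. The fit was run on simulated data with normally distributed log2 values. The outcome is not given here, so it says nothing of the power to call changes in the 8 genes. The 8 genes, the lists and the tests were chosen with earlier results of these data known. From each mast cell list the text names the genes past the threshold and up to 3 with the smallest unadjusted p per comparison, besides Kit, Mrgprb2, Fcer1g, Kitl and Il33. From other cell types it names those past the threshold. 1 gene that this rule would name is not reported here. Mrgprb1, Gata2, Hpgds, Tph1, Mcpt2 and the basophil markers, and Ptprc and Col1a1 in bleomycin, were named after their values were seen. Positions, exons, exonic lengths and coding sequences come from GENCODE M21 on mm10. Alternatives changed the pseudocount, the filter, the scaling, the libraries, the weights, the trend and a replicate block.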

Additional observations from a re-analysis of the deposited data

How the results depend on the processing

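Over the alternatives tried, none of the 8 genes was called in any comparison except Hdc in bleomycin against PBS with library weights, which gave 1 gene called (2.82 on the log2 scale). Of 151 estimates per comparison under an alternative, 148 kept their direction in bleomycin against PBS, 136 in celastrol against bleomycin and 150 in celastrol against PBS; the cause of the exceptions was not tested. In celastrol against bleomycin, library weights gave 0.01 for Tpsb2, -0.26 for Tpsab1 and -0.33 for Ms4a2. Without Bleomycin 3, Celastrol 2 and Celastrol 3 together the estimates were 0.42, -0.20 and -0.38 for these genes, and -0.06 for Cma1 in bleomycin against PBS. With 1 library left out at a time, estimates in celastrol against bleomycin ran from -0.45 to 0.18 for Tpsb2, -0.39 to 0.57 for Tpsab1, -0.19 to 0.33 for Ms4a2 and -0.61 to 0.30 for Hdc. In bleomycin against PBS they ran from -0.06 to 0.30 for Cma1 and -0.02 to 1.05 for Ms4a2, and in celastrol against PBS from -0.02 to 1.15 for Tpsb2. Where this left PBS with 1 library, that library was assumed to vary like the other groups. The number of these genes with celastrol wholly above bleomycin then ran from 0 to 3, with a share over all genes of 4.1% to 10.1%, and was 5 without the 3 libraries together, where 31.9% of all genes lay wholly above; this count was added after seeing the data.

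Over all genes, bleomycin against PBS called 157, but 711 with library weights, 7 without the trend, 0 without the 3 libraries together, and 16 to 229 with 1 library left out. Celastrol against PBS called 317, but 19, 4 and 38 to 418 under the last 3 of these. Celastrol against bleomycin called 2 without the trend and 0 to 1 with 1 library left out. A replicate block on the number in the titles gave 17 calls in bleomycin against PBS and 41 in celastrol against PBS, and 0.05 for Hdc in celastrol against bleomycin; Lcp2 in bleomycin against PBS was at 1.43 with a limma adjusted p of 0.185. Same-numbered libraries correlated at 0 to 0.2 in their deviations from group means, so the numbers were not taken to pair the libraries. Depth limits Tpsab1 and Fcer1a, and also Hdc in PBS 3, where the value stood for about 13 reads. Tpsab1 was not tested with the minimum value set to 50.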
